A study of Homo sapiens with 12 samples.

Results

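Genes of inflammatory signalling were followed in A375 cells, a human melanoma cell line, with and without knockdown of the m6A demethylase ALKBH5. They were chosen by name, with earlier results of these data known. The choice took secreted factors of senescent and melanoma cells together with TNFAIP3, an intracellular brake on the same signalling. All 10 members were found among the 29696 genes of the expression table. The cells of both groups were infected with lentivirus and carried either a hairpin against ALKBH5 (shALKBH5) or a control hairpin (shCtrl, named Scramble in the study). Each group had 3 input libraries, which give the expression values, and 3 libraries immunoprecipitated (IP) with an antibody against m6A. From the IP libraries came 1 peak list per group and 1 table of the authors that compares the peaks of the groups. The hairpin carried by the sequenced cells is not named in the sources used here, and the labels do not say whether the replicates came from separate cultures. The study states independent repeats for its experiments in general, without naming the sequencing, so p-values here measure only the spread between these libraries, which may be technical.

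Cytokines and chemokines are small secreted proteins that call in and instruct immune cells. CXCL8, CXCL1 and CXCL2 attract neutrophils through the receptor CXCR2, CCL2 attracts monocytes through CCR2, and IL1A and IL1B act through the IL-1 receptor to switch on the transcription factor NF-kB. IL6 and LIF signal through the shared receptor chain gp130 and STAT3, IL24 belongs to the IL-10 family, and TNFAIP3 encodes A20, a ubiquitin-editing enzyme that is itself induced by NF-kB and shuts it down. Tumour cells, melanoma cells among them, can secrete these factors themselves, and senescent cells do so as part of a secretory programme. Many of their mRNAs are short-lived, and m6A in an mRNA is one of the marks that readers use to set its stability.

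Because NF-kB drives many of these genes, the stretches of promoter that match its binding motif are shown first. RefSeq windows of GRCh38.p14, from 250 bases before to 50 bases after the start of the gene, were given for 8 of the 10 genes, all but CCL2 and LIF, and also for CXCL3 and NFKBIA, which appear below. Each line is 30 bases, written 5′ to 3′ on the strand of the gene, and the capitals mark the letters that match. The starts are those of RefSeq and can differ from those of the expression table.
CXCL1, chr4:73869304-73869333, plus strand: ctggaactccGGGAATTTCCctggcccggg
CXCL2, chr4:74099254-74099283, minus strand: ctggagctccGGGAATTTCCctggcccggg
CXCL3, chr4:74038749-74038778, minus strand: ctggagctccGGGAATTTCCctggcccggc
CXCL8, chr4:73740468-73740497, plus strand: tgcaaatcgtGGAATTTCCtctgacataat
IL6, chr7:22727117-22727146, plus strand: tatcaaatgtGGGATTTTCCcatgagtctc
TNFAIP3, chr6:137867182-137867211, plus strand: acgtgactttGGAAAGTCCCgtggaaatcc
NFKBIA, chr14:35404811-35404840, minus strand: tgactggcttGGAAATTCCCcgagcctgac

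The capitals are matches to the NF-kB 10-letter consensus, on either strand, except in CXCL8, where they match the 9-letter pattern GGANTTTCC. The consensus was found in 4 of the 8 windows (CXCL1, CXCL2, IL6 and TNFAIP3) and in 5.72% of 27305 RefSeq windows of the same length. GGANTTTCC, which overlaps the consensus, was found in 5 of the 8, with CXCL8 added, and in 1.64% of all windows. The matches began 79 bases before the start in CXCL1, 78 in CXCL2, 91 in CXCL8 and 73 in IL6. TNFAIP3 held 2 matches to the consensus, 67 and 55 bases before its start. TGANTCA, the AP-1 motif, was found in the windows of CXCL8 and IL1A and in 7.76% of all windows, and TATAAA in the same pair and in 12% of all windows. TATAAA began 31 bases before the start in CXCL8 but 239 bases before it in IL1A. Both strands were searched for each motif. Neither NF-kB pattern was found in the windows of IL1A, IL1B and IL24, which says only that these letters are not there.

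The expression values are FPKM (fragments scaled by gene length and by the fragments of the library), so that levels of different genes can be compared, but no read depth is known. Per library the values added up to 212760 to 223231. Gene and peak positions are those of the files, whose spans for all 10 genes overlap the RefSeq positions of GRCh38. ALKBH5, the targeted gene, measured 3.39, 3.92 and 3.12 FPKM with shALKBH5 and 19.3, 17.8 and 17.6 FPKM with shCtrl (values are always given in the order of replicates 1, 2 and 3; log2 fold change -2.36, SE 0.09, adjusted p = 1.28e-06 from limma). The melanoma lineage factor SOX10 was at 178.7 FPKM or more in every library, while TYR and DCT, enzymes of pigment synthesis, reached at most 0.036 FPKM. Of the 5 lineage markers tested 2 were higher and 2 lower, with log2 fold changes of 1.32 for S100B, 0.63 for MITF, -0.80 for AXL and -2.59 for NGFR, beside 61% of all genes tested that were called. The groups overlapped for MITF (adjusted p = 0.0475 from limma), and its call was lost without a filter (adjusted p = 0.126). Of the leukocyte markers, CD14 reached at most 0.211 and ITGAM 0.0421 FPKM, and PTPRC and CD3E were not analysed here. CD68 and LYZ, which belong to the same list, were higher in shALKBH5 cells, and the summed level of the list was 42.9 to 46.8 FPKM in shALKBH5 and 15.7 to 18.1 FPKM in shCtrl libraries. The sum over markers of fibroblasts, endothelium and keratinocytes was 3.77 to 4.04 FPKM in shALKBH5 and 8.55 to 9.74 FPKM in shCtrl libraries. Most of the leukocyte sum was CD68, with means of 40.4 FPKM in shALKBH5 and 16.2 FPKM in shCtrl cells. Most of the other sum was PDGFRB, with means of 2.73 FPKM in shALKBH5 and 7.25 FPKM in shCtrl cells. The part of these shifts in the results below was not tested. In bulk RNA of a cell line, a change in some cells and a change in all of them cannot be told apart.

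The A375 cells expressed most of these factors, and shALKBH5 cells had more of several of them. In shCtrl cells, IL24, CXCL8, CCL2, IL1A and CXCL1 formed a top group with means between 11.8 and 17.9 FPKM, in which each gene's libraries overlapped those of the next. LIF followed at 6.48, IL1B at 2.70 and TNFAIP3 at 0.567 FPKM, each apart from the next, and CXCL2 and IL6 were lowest at 0.136 and 0.0763 FPKM with overlapping libraries. In shALKBH5 cells CXCL1 stood first at 31.4 FPKM, apart from the next genes. IL1A and IL24 overlapped each other, both at 26.9 FPKM, CXCL8 was at 22.9 FPKM, and TNFAIP3 stood above IL1B. The summed level of the 10 genes was 85.1 ± 3.09 FPKM (SD, n = 3) in shCtrl and 134.2 ± 5.66 FPKM (SD, n = 3) in shALKBH5 cells.

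**Figure D1:**
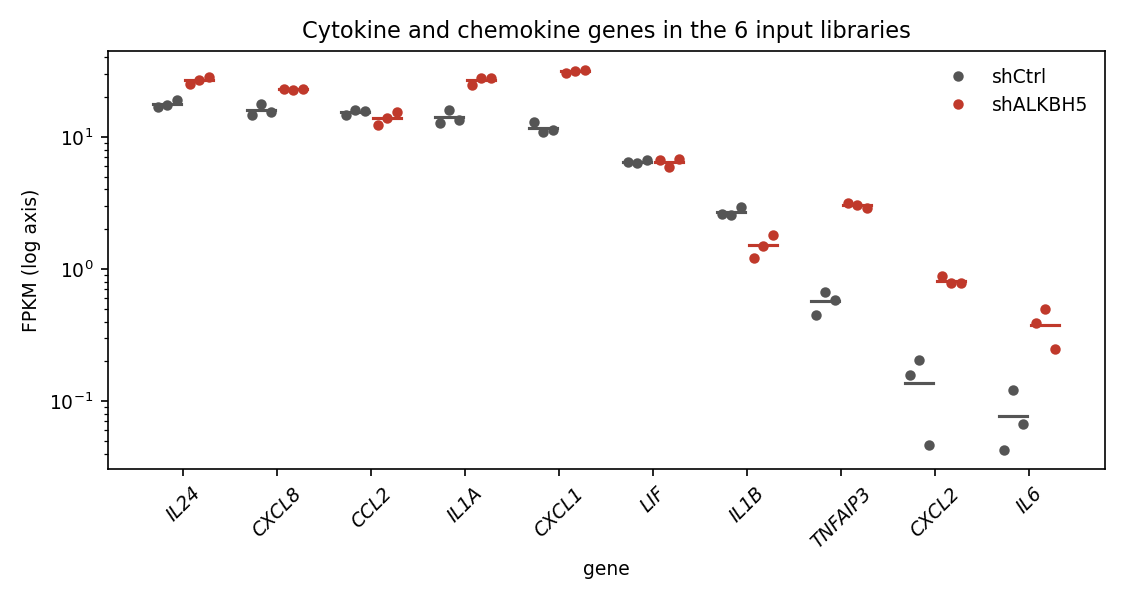
FPKM (log axis) of the 10 genes in the 3 shCtrl (grey) and 3 shALKBH5 (red) input libraries; points are libraries and bars are group means. The red points lie wholly above the grey ones for 7 genes and wholly below them for IL1B, and the groups overlap for CCL2 and LIF.

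Genes were tested with limma on log2(FPKM + 0.1) when their mean over the 6 libraries was at least 0.5 FPKM. Of the 10 genes 8 passed this filter, and of these 5 were higher (TNFAIP3, CXCL1, IL1A, IL24 and CXCL8), 1 was lower (IL1B) and 2 did not pass the test (CCL2 and LIF) at an adjusted p-value under 0.05. The background is large, since 61% of all 12985 genes tested passed, 34.7% as higher and 26.2% as lower. After rescaling by the median ratio this balance turned, with 3723 genes higher and 3915 lower where 4509 and 3408 had been. The 5 higher of 8 make 62.5%. The median log2 fold change was 0.55 over the 8 genes and 0.09 over all genes tested. Since the genes were chosen with earlier results of these data known, these differences from the background do not test the set. All 5 higher genes and the lower one had groups that did not overlap, as had 38% of all tested genes in the higher and 29% in the lower direction. With CXCL2 and IL6 added, the groups were apart in 7 higher genes of the 10, beside 22.5% higher and 17.2% lower of all 29696 genes. Tested without a filter, 8 of the 10 passed, beside 27.7% of 29696 genes. For any single gene the exact permutation test of 3 libraries against 3 cannot give a two-sided p below 0.1, and it gave 0.1 for each of those 8 genes.

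Of the chemokines that attract neutrophils, CXCL1 and CXCL8 were higher in shALKBH5 cells, and CXCL2 was too low for the main test. CXCL1 (ENSG00000163739, chromosome 4, 73869393 to 73871308) measured 30.6, 31.3 and 32.3 FPKM with shALKBH5 and 13.1, 10.9 and 11.3 FPKM with shCtrl. All shALKBH5 libraries lay far above all shCtrl libraries, by 2.67 times on the means. The log2 fold change was 1.42 (SE 0.07, adjusted p = 4.45e-06 from limma), and 5.41% of all genes tested were called higher with a log2 fold change above 1.

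CXCL8 (ENSG00000169429, chromosome 4, 73740541 to 73743716), interleukin-8, measured 23.2, 22.5 and 22.9 FPKM with shALKBH5 and 14.7, 17.7 and 15.4 FPKM with shCtrl. The groups were separate, but the step was smaller than for CXCL1, with a log2 fold change of 0.53 (SE 0.07, adjusted p = 4.92e-04 from limma). CXCL8 was thus above CXCL1 in each shCtrl library and below it in each shALKBH5 library. The ratio of CXCL1 to CXCL8 was 0.746 ± 0.139 (SD, n = 3) in shCtrl and 1.37 ± 0.0472 (SD, n = 3) in shALKBH5 cells.

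CXCL2 (ENSG00000081041, chromosome 4, 74097040 to 74099196), a close relative of CXCL1, measured 0.878, 0.781 and 0.785 FPKM with shALKBH5 and 0.158, 0.204 and 0.0462 FPKM with shCtrl. Its level stayed under 1 FPKM in every library although the groups were well apart. Its mean of 0.475 FPKM fell just short of the filter. Without a filter its log2 fold change was 2.02 (SE 0.30, adjusted p = 0.00464 from limma), beside 15.6% of 29696 genes called higher in that fit. The size depended on the pseudocount, from 0.68 at a pseudocount of 1 to 2.71 at 0.01.

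CXCL3, the third close relative in the cluster, was not among the 10 genes and is given for comparison. It measured 2.40, 2.23 and 2.75 FPKM with shALKBH5 and 0.244, 0.175 and 0.456 FPKM with shCtrl (log2 fold change 2.77, SE 0.26, adjusted p = 7.40e-05 from limma), and it passed the filter only through its shALKBH5 libraries. CXCL1, CXCL2 and CXCL3 are so alike in sequence that reads can be shared between them, and how the authors counted such reads is not given in the sources used here. CXCL6, which lies between CXCL8 and CXCL1, was listed at 0 in 5 of the libraries and at 0.0195 FPKM in the other. The stretch from CXCL8 to CXCL2 spans 358.7 kb and held 6 listed genes, of which CXCL8, CXCL1, CXCL3 and CXCL2 had shALKBH5 libraries wholly above the shCtrl libraries, as had 22.5% of all 29696 genes.

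**Figure D2:**
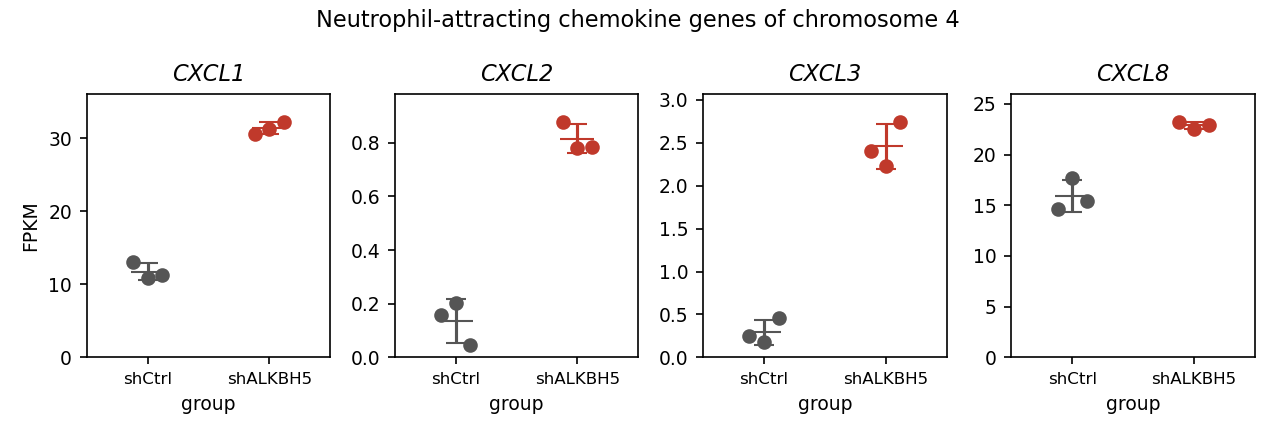
FPKM (linear axes from 0, one per gene) of CXCL1, CXCL2, CXCL3 and CXCL8 in shCtrl and shALKBH5 libraries; points are libraries, and the bar and whiskers are the mean and SD of 3. CXCL1 and CXCL8 lie above 10 FPKM in every library and CXCL2 below 1, and in each panel the shALKBH5 points are above all shCtrl points.

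CCL2 (ENSG00000108691, chromosome 17, 34255218 to 34257203), the monocyte chemokine MCP-1, did not follow. It measured 12.3, 14.02 and 15.4 FPKM with shALKBH5 and 14.7, 16.04 and 15.8 FPKM with shCtrl. The groups overlapped, with shALKBH5 replicate 3 inside the shCtrl range. The log2 fold change was -0.16 (95% interval -0.36 to 0.04, adjusted p = 0.141 from limma). The call rested on the scaling and on 1 library, since CCL2 was called lower after rescaling by the median ratio (log2 fold change -0.24, adjusted p = 0.0496) and without shALKBH5 replicate 3 (log2 fold change -0.24, adjusted p = 0.0383). Without shALKBH5 replicate 1 the log2 fold change was -0.07 (adjusted p = 0.413 from limma).

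The 2 forms of interleukin-1, neighbours on the minus strand of chromosome 2, went opposite ways. IL1A (ENSG00000115008, 112773925 to 112784493), which encodes the form that acts at the cell surface and as an alarmin, measured 24.8, 28.01 and 27.9 FPKM with shALKBH5 and 12.9, 16.02 and 13.5 FPKM with shCtrl. Every shALKBH5 library was above every shCtrl library (log2 fold change 0.93, SE 0.09, adjusted p = 9.25e-05 from limma). IL1B (ENSG00000125538, 112829751 to 112836816), the form that is cut and released through caspase-1, measured 1.21, 1.497 and 1.81 FPKM with shALKBH5 and 2.61, 2.56 and 2.93 FPKM with shCtrl. It was the only one of the 10 genes whose shALKBH5 libraries all lay below the shCtrl libraries (log2 fold change -0.82, SE 0.14, adjusted p = 0.00193 from limma). The ratio of IL1A to IL1B rose from 5.25 ± 0.886 (SD, n = 3) to 18.2 ± 2.58 (SD, n = 3).

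Of the gp130 cytokines, IL6 was barely expressed and the groups overlapped for LIF. IL6 (ENSG00000136244, chromosome 7, 22725884 to 22732002) measured 0.387, 0.495 and 0.249 FPKM with shALKBH5 and 0.0424, 0.120 and 0.0665 FPKM with shCtrl. The groups did not overlap, at levels below the filter. Without a filter the log2 fold change was 1.43 (SE 0.28, adjusted p = 0.0137 from limma), and it ran from 0.35 at a pseudocount of 1 to 2.21 at 0.01. LIF (ENSG00000128342, chromosome 22, 30240453 to 30246759) measured 6.69, 5.92 and 6.76 FPKM with shALKBH5 and 6.49, 6.32 and 6.64 FPKM with shCtrl. Its shALKBH5 libraries lay on both sides of the shCtrl range, with a log2 fold change of -0.01 (95% interval -0.16 to 0.15, adjusted p = 0.922 from limma).

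IL24 (ENSG00000162892, chromosome 1, 206897443 to 206904139), first described as a gene of melanoma differentiation, measured 25.1, 26.8 and 28.6 FPKM with shALKBH5 and 16.8, 17.6 and 19.2 FPKM with shCtrl. The groups were separate, with a log2 fold change of 0.58 (SE 0.07, adjusted p = 2.31e-04 from limma). Its mean over the libraries of both groups, 22.4 FPKM, was the highest of the 10 genes. In shALKBH5 cells alone CXCL1 was above it, and in shCtrl cells its libraries overlapped those of CXCL8.

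TNFAIP3 (ENSG00000118503, chromosome 6, 137867214 to 137883312), the A20 gene, changed most among the 8 tested genes. It measured 3.17, 3.07 and 2.92 FPKM with shALKBH5 and 0.451, 0.670 and 0.581 FPKM with shCtrl. The lowest shALKBH5 library was well above the highest shCtrl library, and the means differed by 5.38 times. The log2 fold change was 2.25 (SE 0.14, adjusted p = 1.06e-05 from limma), beside 0.662% of all genes tested that were called higher with a log2 fold change above 2. With a pseudocount of 1 it was 1.37. Its shCtrl mean of 0.567 FPKM alone was above the filter.

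Other genes of the pathway were taken from lists, starting with NF-kB itself. Of 27 genes of the NF-kB list 26 were tested, and 16 were higher, 1 was lower and 9 did not pass the test. The 61.5% that were higher stand beside 34.7% of all genes tested, and the median log2 fold change was 0.37. This list too was chosen with earlier results of these data known, so the share does not test it. NFKBIA, the inhibitor IkB-alpha that NF-kB induces, rose from a mean of 10.2 ± 0.432 in shCtrl to 23.7 ± 0.986 FPKM in shALKBH5 cells (± SD, n = 3 each), with a log2 fold change of 1.21 (adjusted p = 2.25e-06 from limma). CHUK, which encodes the kinase IKK-alpha, and BIRC3, the ubiquitin ligase cIAP2, had log2 fold changes of 1.04 and 1.42. BIRC3 passed the filter only through its shALKBH5 libraries. NFKB1, the p50 subunit, had a log2 fold change of 0.82 (adjusted p = 1.14e-05 from limma). RELA, the p65 subunit, had 0.16 (adjusted p = 0.0297 from limma), a call that was lost after rescaling by the median ratio (log2 fold change 0.08, adjusted p = 0.342), without a filter (adjusted p = 0.0603), without the mean-variance trend (adjusted p = 0.0661) and without each of 5 libraries, all but shCtrl replicate 1, with adjusted p-values up to 0.1. Of the partners of A20, RNF11 and TNIP2 rose by 0.76 and 0.43 on the log2 scale, and TNIP1 was at 0.03 (adjusted p = 0.686 from limma). Of the 5 partners tested 2 were higher and none was lower, so that 40% were called beside 61% of all genes tested.

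**Figure D3:**
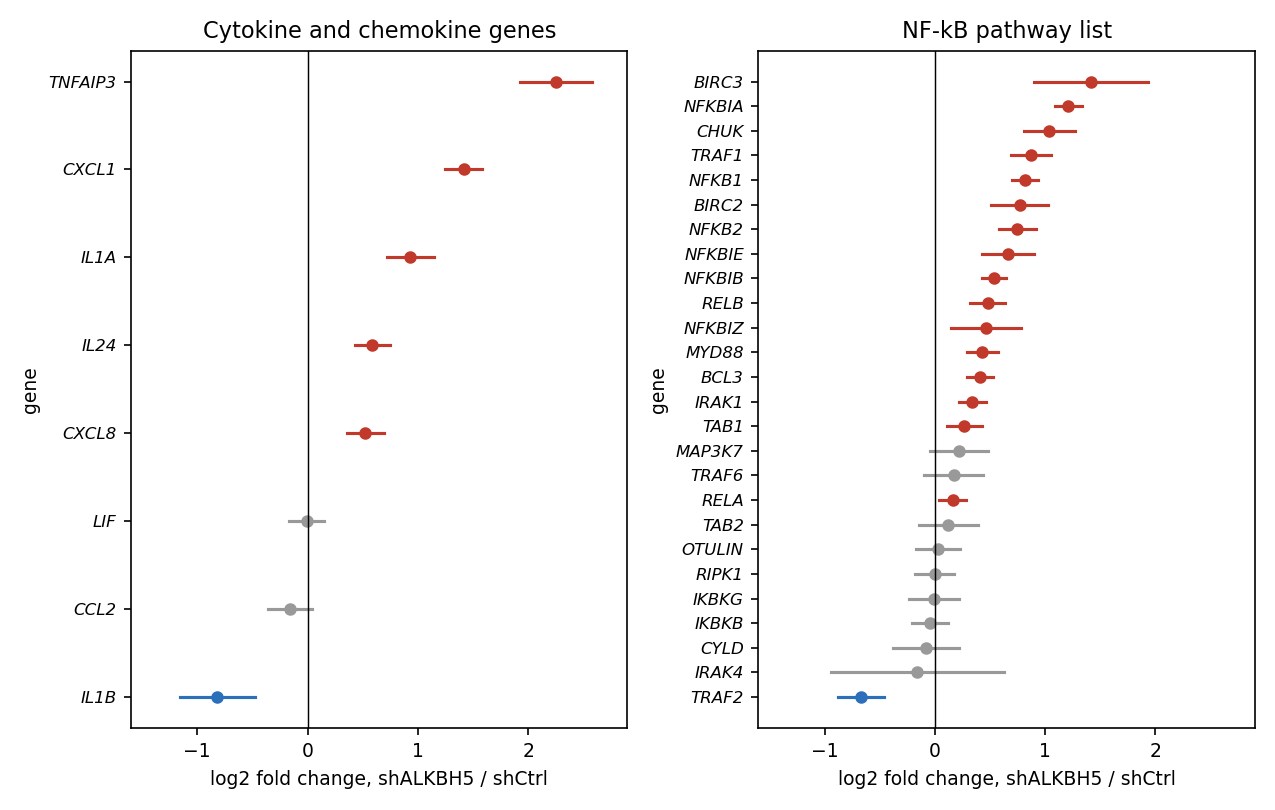
Log2 fold change (shALKBH5 over shCtrl, on log2(FPKM + 0.1)) with its 95% interval for the 8 tested cytokine and chemokine genes (left) and the 26 tested genes of the NF-kB list (right); red was called higher, blue lower and grey neither by limma. TNFAIP3 at 2.25 and IL1B at -0.82 are the ends of the left panel, and 16 of the 26 genes on the right are red.

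The other ligands were mostly near or below the filter. Of 16 further chemokines on the list 12 were found and 3 tested. The 1 that was called, CXCL3, entered the test only through its shALKBH5 libraries, so this count says nothing of the list. Of 21 further cytokines 7 were tested and 2 were higher, which is 28.6% beside 34.7% of all genes tested. IL11, another gp130 cytokine, rose from a mean of 5.92 ± 0.111 in shCtrl to 20.1 ± 0.694 FPKM in shALKBH5 cells (± SD, n = 3 each), with a log2 fold change of 1.74 (adjusted p = 4.43e-07 from limma). IL32 rose from a mean of 0.612 ± 0.121 in shCtrl to 3.65 ± 0.311 FPKM in shALKBH5 cells (± SD, n = 3 each), with a log2 fold change of 2.41 (adjusted p = 1.01e-05 from limma).

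Of 8 receptors tested 2 were higher and 3 lower, and the 62.5% called are close to the 61% of all genes tested. IL6R, the IL-6 receptor chain, had a log2 fold change of 0.87, and OSMR, the oncostatin M receptor, and IL1RAP, the accessory chain of the IL-1 receptor, had -0.58 and -0.62. IL6ST, which encodes gp130, was at 0.11 (adjusted p = 0.606 from limma). IL1R1 and LIFR were under the filter, with means of 0.252 and 0.237 FPKM in shALKBH5 and 0.0824 and 0.664 FPKM in shCtrl cells.

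Downstream of gp130, SOCS3, the feedback inhibitor induced by STAT3, fell from a mean of 7.87 ± 0.356 in shCtrl to 1.87 ± 0.0223 FPKM in shALKBH5 cells (± SD, n = 3 each), with a log2 fold change of -2.01 (adjusted p = 6.37e-07 from limma). SOCS2 rose by 1.15 and the kinase JAK1 fell by 0.93 on the log2 scale. STAT3 was at 0.16 (adjusted p = 0.0113 from limma), a call lost after rescaling by the median ratio (0.08, adjusted p = 0.275), and CEBPB, a transcription factor of the IL6 promoter, was at -0.36. Over this list 2 of 10 tested genes were higher and 3 were lower, 50% in all beside 61% of all genes tested, and the median log2 fold change was -0.04.

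Of 11 factors that bind or cut AU-rich and cytokine mRNAs 3 were higher and 5 lower, which is 27.3% and 45.5% beside 34.7% and 26.2% of all genes tested. ZFP36, tristetraprolin, rose from a mean of 3.63 ± 0.264 in shCtrl to 8.97 ± 1.07 FPKM in shALKBH5 cells (± SD, n = 3 each). ZC3H12A, the nuclease Regnase-1 that cuts IL6 mRNA, had a log2 fold change of 1.57, and ZFP36L2, of the tristetraprolin family, fell from 12.6 to 4.12 FPKM. Among the genes of IL-1 processing 1 of 7 was higher and 2 were lower, all by small amounts, with log2 fold changes of -0.33 for CASP4, -0.28 for the calpain gene CAPN1, which belongs to the proteases that cut IL-1 alpha, and 0.25 for S100A13. The 42.9% called on this list stand beside 61% of all genes tested.

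Of 16 other secreted factors of senescent cells tested 4 were higher and 4 lower, 25% each beside 34.7% and 26.2% of all genes tested, with a median log2 fold change of -0.02. FGF2, a growth factor, fell by 1.44 on the log2 scale. TIMP2, an inhibitor of metalloproteinases, fell from 36.5 to 16.7 FPKM. Of 5 senescence markers tested 1 was higher and 4 were lower, 20% and 80% beside the same 34.7% and 26.2%. The list mixes genes that rise in senescent cells with genes that fall in them, so these shares have no single meaning. The other 2 markers of the list lay under the filter. CDKN1A (p21) was higher, with a log2 fold change of 0.30, while LMNB1 (lamin B1) and the proliferation marker MKI67 had log2 fold changes of -2.50 and -1.86. HMGB2, a chromatin protein that is lost in senescent cells, was at -2.39, and GLB1, which encodes the beta-galactosidase that senescent cells hold more of, was lower as well, at -0.23 (adjusted p = 0.00686 from limma). Over all pathway lists together 33 of 93 tested genes were higher and 18 lower, which is 35.5% and 19.4% beside 34.7% and 26.2% of all genes tested. The higher count holds CXCL3 and BIRC3, which passed the filter only through their shALKBH5 libraries.

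The m6A peaks of the 10 genes were taken from the 2 peak lists, which hold no value per library, so none of the differences between the lists below has a test. Most lay in the 3′UTR. The shALKBH5 list held 12 peaks in 8 of the genes and the shCtrl list 8 peaks in 5. By the authors' annotation 10 of the 12 and 7 of the 8 were in the 3′UTR, beside 45.5% and 46.2% of all peaks of the lists. Of the 8 tested genes 87.5% had a peak in the shALKBH5 list and 62.5% in the shCtrl list, beside 86% and 85.5% of all genes tested. Both lists held a peak for 5 of the 8 (IL1A, IL1B, LIF, IL24 and TNFAIP3), beside 82.6% of all genes tested, and none had one in the shCtrl list alone, beside 2.89%. CXCL8, at 19.4 FPKM over all libraries, and CXCL2 had no listed peak.

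TNFAIP3 had 4 peaks in the shALKBH5 list, the most of the 10 genes there, and 2 in the shCtrl list, as had LIF and IL1A. In the shALKBH5 list its 3′UTR held a peak from 137878462 to 137880168 (1707 bp, fold enrichment of IP over input 9.47) and one from 137881278 to 137882146 (869 bp, 7.56). The shCtrl list held one within the first, from 137878581 to 137879329 (749 bp, 6.58), and one from 137881398 to 137882176 (779 bp, 10.6). The first region was thus wider and more enriched in the shALKBH5 list and the second less enriched. A peak in the 5′UTR (fold enrichment 5.31) and a weaker one annotated as exonic (1.6) were listed for shALKBH5 cells alone. The RNA of TNFAIP3 in the input was 5.38 times higher in shALKBH5 cells, and the part of this difference in what could be called was not tested.

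LIF, whose RNA did not pass the test, had an overlapping pair of peaks in both lists. One covered 30242835 to 30244055 (1221 bp) in each, with fold enrichments of 7.33 in shALKBH5 and 7.51 in shCtrl cells. The other covered 656 bp with 4.82 in the shALKBH5 and 745 bp with 6.30 in the shCtrl list.

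The interleukin genes IL24, IL1A and IL1B had peaks of lower fold enrichment. IL24 had 1 overlapping 3′UTR peak per list, of 750 bp with a fold enrichment of 2.16 in shALKBH5 and of 720 bp with 3.43 in shCtrl cells. IL1A had a 3′UTR peak in both (1.42 and 1.54) and a 5′UTR peak of 724 bp in the shCtrl list alone (2.21). IL1B had 1 in both (1.71 and 1.47), of which the shALKBH5 peak had a log10 FDR of -1.18, short of an FDR of 0.05. These values lie in the lower part of their lists, whose median fold enrichments were 5.31 and 5.25.

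CXCL1, CCL2 and IL6 had a peak in the shALKBH5 list alone, all in the 3′UTR. That of CXCL1 (73871071 to 73871249) ended 59 bp before the end of the gene, with a fold enrichment of 1.83 and a log10 p of -10.5. That of CCL2 (34256551 to 34256670) had a fold enrichment of 3.21 and a log10 p of -5.94, with RNA levels that overlapped between the groups. That of IL6 had 6.12, but with a log10 FDR of -0.454 it was far from an FDR of 0.05. Of the 8 tested genes 2 (25%) had a peak in the shALKBH5 list alone, beside 3.34% of all genes tested. The input RNA of CXCL1, which is 1 of these 2, was 2.67 times higher in shALKBH5 cells. The part of this difference in what could be called was not tested. The authors' table that compares the peaks of the groups held 5 peaks of 4 of the genes (CXCL1, CCL2, IL24 and 2 of TNFAIP3), all in the 3′UTR, and 32.7% of all genes tested have a peak in it.

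**Figure D4:**
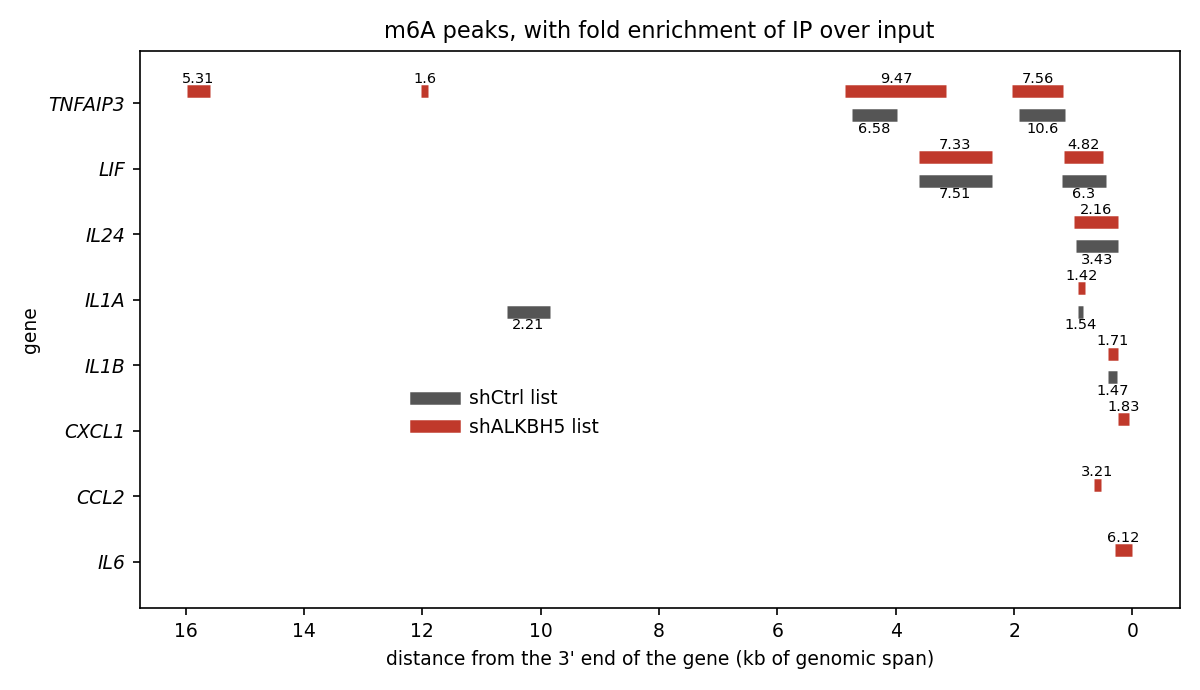
Listed m6A peaks of 8 genes by distance from the 3′ end of the gene (kb of genomic span, introns included), for the shALKBH5 (red) and shCtrl (grey) lists; bars span the peak and numbers give its fold enrichment of IP over input. The pairs of LIF overlap between the lists, the first 3′UTR bar of TNFAIP3 is wider in red, and CXCL1, CCL2 and IL6 have red bars alone.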

How the data were processed

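A375 cells with shALKBH5 or shCtrl were analysed by RNA-Seq of the input and by MeRIP-Seq, with 3 libraries of each kind per group, grouped by their labels. The authors deposited expression as FPKM per input library, without counts, so a count test was not possible. The aligner and peak caller are not given in the sources used here. The submitters' processing notes name the build mm10, a mouse build, yet all 10 gene spans overlap the RefSeq GRCh38 positions. Peaks came as 1 list for each group, where the deposited fold enrichment is the ratio of IP over input and the deposited log10 p and log10 FDR were treated as a score. Whether replicates were pooled for peak calling is not stated. Their table of differential peaks holds log2 fold changes, p-values and FDR values, and the expression table their own fold changes and p-values; none of these was used, and of the peak table only positions and annotation. Peak starts count from 0 in the files and from 1 here. Low FPKM values showed no steps of single reads, so depth is unknown and 3 libraries per group limit the precision.

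For expression, limma 3.58.1 (R 4.3.3) was run with a mean-variance trend on log2(FPKM + 0.1), in both directions, for the 12985 genes whose mean reached 0.5 FPKM, and p-values were adjusted over these genes by Benjamini-Hochberg. This scale makes fold changes of low genes too small. Single genes were also compared by exact permutation tests in scipy 1.17.1. Peaks overlapped when they shared a strand and 1 bp or more. The 10 genes and the gene lists were chosen with earlier results of these data known. Named from each list were the 3 largest changes that passed the test with separate groups and at least 1 FPKM in the higher group, together with ALKBH5, NFKB1, RELA, NFKBIA, STAT3, IL6ST, IL1R1, LIFR, ZFP36, TNIP1, CEBPB, CDKN1A, LMNB1 and CXCL3. 1 gene that this rule names is not reported here. Markers at 1 FPKM or above could be named. CXCL6, TYR, DCT, CD14, ITGAM and the genes of the closing observations were chosen after their values were seen. Other settings tried were a pseudocount of 1 or 0.01, a filter of 1 FPKM or none, rescaling by the median ratio, a block for the replicate number, no trend, each library left out, stricter peaks and a 50% reciprocal overlap; for CXCL2 and IL6, fits without a filter under the other pseudocounts, the rescaling, the block and each library left out were added after the data were seen.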

Additional observations from a re-analysis of the deposited data

How the results depend on the processing

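The 5 higher genes of the 10 were called under each alternative tried, and the count was 7 without a filter, where CXCL2 and IL6 entered. With each library left out it was 5 to 6, the 6 in each case without a shCtrl library. The gene added there was CXCL2, which then passed the filter only through its shALKBH5 libraries. The count of lower genes was 1, except 2 after rescaling by the median ratio, where CCL2 joined IL1B, and 1 to 2 with each library left out. The pathway lists gave 28 to 37 higher and 15 to 22 lower genes across all alternatives. ALKBH5 ran from -2.45 to -2.29 with each library left out. CXCL2 and IL6 passed in each fit run without a filter, which did not include one without the trend. Libraries of different groups with the same replicate number did not deviate together (r of their deviations 0.018, -0.046 and 0.059). With the replicate block 5 genes of the 10 were higher and 1 lower, and 32 and 16 of the pathway lists, and RELA lost its call (adjusted p = 0.0543 from limma). With stricter peaks (2-fold enrichment or more, FDR no higher than 0.01) 7 of 12 remained in the shALKBH5 list and 6 of 8 in the shCtrl list. Those of CXCL1, IL6, IL1B and the 3′UTR of IL1A and the exonic one of TNFAIP3 did not pass. A reciprocal overlap of 50% left 6 of 7 overlapping peaks in each list. Low levels limit the fold changes: with a pseudocount of 1 the log2 fold change became 1.43 for CXCL3, 1.53 for IL32, 0.63 for BIRC3, -0.76 for FGF2 and -0.36 for IL1RAP, with each call kept.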

Other observations

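Some genes of the lists lay below the filter and still had groups that did not overlap, and they are given as values chosen after they were seen. Of all 29696 genes, 22.5% had groups apart in the higher and 17.2% in the lower direction. CXCL10, a chemokine for T cells that interferon induces, measured 0.397, 0.341 and 0.414 FPKM with shALKBH5, while each shCtrl library listed it at 0. IL1R2, the decoy receptor that binds IL-1 without a signal, was at 0.298, 0.374 and 0.322 FPKM in shALKBH5 and at 0.0481, 0.0352 and 0.0712 FPKM in shCtrl libraries. CCL20, the ligand of CCR6, was at 0.127, 0.184 and 0.138 FPKM in shALKBH5 libraries and was listed at 0 in 2 of the 3 shCtrl libraries. CXCL14, from the same list of chemokines, went the other way. It was at 0.0553, 0.120 and 0.0555 FPKM in shALKBH5 and at 0.222, 0.224 and 0.1555 FPKM in shCtrl libraries. TNFRSF1B, the second TNF receptor, was lower, at 0.150, 0.0823 and 0.0906 FPKM against 0.461, 0.475 and 0.508 FPKM. TRAF2, an adaptor of TNF receptors, was the 1 gene of the NF-kB list that was lower, at 4.07, 4.48 and 5.16 FPKM against 7.61, 7.08 and 7.21 FPKM (log2 fold change -0.67, adjusted p = 4.89e-04 from limma).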
